A study of Mus musculus with 9 samples.

Results

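Polycomb repressive complex genes encode the subunits of PRC2, PRC1 and PR-DUB, and 38 of them were followed here among the 49672 rows of a gene expression table from newborn mouse epidermis. The members were taken by name, as the rows whose Ensembl identifiers map to the 38 gene symbols, and all 38 were found. The question addressed is whether transcripts of the Polycomb machinery differ between Merkel cells, the epidermal cells that sense light touch, and basal keratinocytes. Ezh2, Eed, Aebp2, Mtf2, Pcgf2, Phc3, Auts2, Asxl1 and Asxl2 fell in Merkel cells. Over all genes 28.5% fell, and the share of the tested members that fell was near that background. Against the mean of the basal libraries no difference was detected for the RING ligases, Bmi1, Rbbp4 or Jarid2.

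Epidermal cells of the reporter strain Sox2-GFP were sorted by flow cytometry at postnatal day 0. All libraries share that strain, age and tissue, and the sources used here do not describe the reporter's construction. GFP-positive cells were taken as Merkel cells (3 libraries), and GFP-negative cells with SCA1 and CD49F at their surface as basal keratinocytes (6 libraries). Sample numbers 1 to 3 each have 1 Merkel library and a pair of basal libraries, which the titles number and which are termed first and second below. How the pair differ, and what a sample number stands for (mouse, litter or pool), is not in the labels, so the p-values cover only the spread between sample numbers and that spread may be partly technical.

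PRC2 places methyl groups on histone H3 at lysine 27 through the catalytic subunits Ezh2 or Ezh1, which work only together with Eed and Suz12. PRC1 attaches ubiquitin to histone H2A through Rnf2 or Ring1, and its form depends on which PCGF protein is bound: canonical complexes with Bmi1 or Pcgf2 carry CBX proteins that read the PRC2 mark, and variant complexes carry Rybp or Yaf2 in their place. PR-DUB, built from Bap1 and an ASXL protein, removes the H2A mark. In mouse skin, loss of Ezh1 and Ezh2 in epidermal progenitors is known to lead to extra Merkel cells, and Sox2 and Isl1 are known PRC2 targets there.

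Levels are given in TPM, a transcript abundance per length scaled to the same total in each library, so levels of different genes can be compared. Changes are log2 fold changes of Merkel over basal values on the log2(TPM + 1) scale, with SE, and they understate differences of genes near 0. The main test was limma with a variance trend on 3 Merkel and 3 basal values (the 2 basal libraries of a number averaged), two-sided, with Benjamini-Hochberg adjustment over 13822 genes. This test does not pair values by sample number. A gene is said to have risen or fallen at an adjusted p under 0.05, whatever its fold. Merkel libraries showed a median change of -0.15 over all genes tested, so a second version of each test scaled every library by its median ratio to the others. Of all calls, 31.6% were higher as deposited and 51.7% after that scaling.

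The sort was visible in the marker genes. All 10 Merkel cell markers rose, with summed levels of 913.9 to 1220 TPM in Merkel libraries and 2.41 to 6.05 TPM in basal libraries, and all 7 basal keratinocyte markers fell. The latter still summed to 4553 to 5097 TPM in Merkel libraries, against 15870 to 17360 TPM in first and 12840 to 14300 TPM in second basal libraries. Krt5 alone was at 2124.36 to 2361.31 TPM in Merkel libraries, and levels of Ly6a overlapped between the cell types. Sox2, for which the reporter is named and which is also a PRC2 target, was at 44.89 to 53.11 TPM in Merkel libraries and at 0.16 TPM or less in basal libraries. Cells were sorted on that reporter, so the Sox2 level is not independent of the sort. Isl1, another known target, was at 36.45 to 55.78 TPM against 0.07 to 0.58 TPM and rose by 5.25 ± 0.18 (adjusted p = 2e-07). Of the 3 target genes listed, the third stayed under 1 TPM in all 9 libraries and was not tested. The 7 macrophage and Langerhans cell markers summed to 673.6 to 1024 TPM in the first basal libraries, 43.17 to 242.9 TPM in the second and 47.66 to 131.4 TPM in Merkel libraries. The 7 melanocyte markers summed to 152.5 to 213.9 TPM in Merkel libraries, 16.22 to 36.34 TPM in the first basal libraries and 109.9 to 158.9 TPM in the second, and the 8 fibroblast markers to 175.1 to 270.1, 36.08 to 103.1 and 102.3 to 253.4 TPM. The highest fibroblast marker, Dcn, overlapped between the cell types. Of the 8, 6 were higher in every Merkel than in every basal library and 0 were lower, and of the melanocyte markers 3 were higher and 0 lower. The 5 endothelial markers stayed at or below 3.8 TPM in sum, and the 6 Schwann cell and neuron markers were at 15.15 to 22.28 TPM in Merkel and 7.63 to 11.03 TPM in basal libraries. Small and mitochondrial RNAs held 53.4% of TPM in Merkel replicate 2 and 40.6% to 46.1% in the 8 other libraries, and that library was the lowest of the 3 Merkel libraries for 33 of 37 tested members. The part of these shares, of keratinocyte RNA in the Merkel libraries and of other cells in the results below was not tested.

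Of the 38 members, 37 reached 1 TPM in at least 3 of the 6 values and were tested, and Asxl3, at 0.08 to 0.26 TPM in all 9 libraries, was not. Of the 37, 14 fell in Merkel cells and 0 rose. Over all genes 28.5% fell and 13.2% rose, and 37.8% of the tested members fell, a share near that background. At an unadjusted p under 0.05, 16 members were lower and 0 higher, where 4717 of all 13822 genes were lower and 2140 higher. The median change of the members was -0.20, against -0.15 over all genes. After median-ratio scaling 11 members fell and 2 rose, where 21.7% of all genes fell and 23.2% rose. All 3 Merkel libraries lay below all 6 basal libraries for 14 of the 37 members, against 26.2% of all genes, and above them for 0, against 11.7%. On the log2(TPM + 1) scale, which understates ratios of TPM, only Auts2 of the members fell by 2-fold or more, as did 5.27% of all genes. In these bulk samples, less RNA per cell and fewer cells that carry a transcript cannot be told apart.

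**Figure D1:**
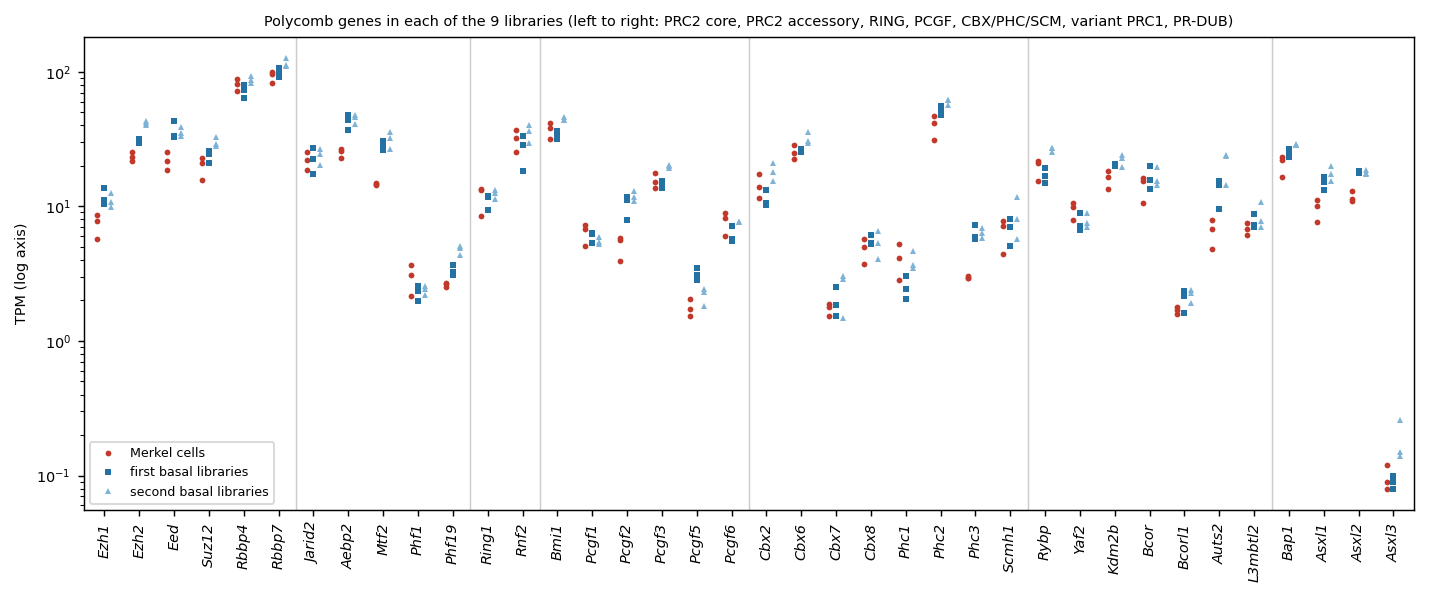
Level of each of the 38 Polycomb genes (TPM, log axis) in every library: 3 Merkel libraries (circles), 3 first basal libraries (squares) and 3 second basal libraries (triangles), grouped by role and divided by vertical lines. Merkel values of Mtf2, Phc3, Aebp2 and Asxl2 sit apart from all 6 basal values, those of Rnf2, Ring1 and Rbbp4 overlap the basal range, and Asxl3 stays at 0.08 to 0.26 TPM.

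In the PRC2 core, 3 of 6 genes fell in Merkel cells (background 28.5%). Ezh2 (ENSMUSG00000029687, chr6:47530139-47595341 in GRCm38, the same build as mm10), the catalytic subunit typical of dividing cells, was at 23.30, 21.58 and 25.29 TPM in Merkel replicates 1 to 3. It was at 31.80, 29.78 and 29.47 TPM in the first basal libraries and at 42.85, 39.95 and 41.74 TPM in the second. The 3 groups did not overlap: Merkel libraries were lowest and second basal libraries highest. Mean levels were 23.4 ± 1.86 TPM in Merkel and 35.9 ± 1.26 TPM in basal values (SD, n = 3), a change of -0.58 ± 0.11 (limma adjusted p = 0.00323) that was -0.40 after scaling (adjusted p = 0.00379).

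Ezh1 (ENSMUSG00000006920, chr11:101191115-101226463), the paralog that is more usual in non-dividing cells, moved the same way and by the same amount. Its Merkel levels were 8.61, 5.69 and 7.77 TPM, below all first basal levels (13.73, 10.41 and 11.13 TPM) and all second basal levels (12.63, 10.82 and 9.85 TPM). The change was -0.58 ± 0.17 (limma adjusted p = 0.021). Without basal replicate 1 it was -0.48, and the adjusted p rose to 0.0737. Ezh2 was the more abundant paralog throughout and held 73% to 79.1% of the summed Ezh level in Merkel and 69.8% to 80.9% in basal libraries, so its share overlapped between cell types. The log2 ratio of Ezh2 to Ezh1 within a library differed by -0.0029 between the cell types (exact permutation test, two-sided, p = 1, n = 3 against 3). The direction turned with the basal set: the difference was 0.25 against the first and -0.26 against the second basal libraries alone.

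Eed (ENSMUSG00000030619, chr7:89954654-89980983), the subunit that binds methylated histone H3 and stimulates the enzyme, fell as well. Its levels were 21.62, 18.59 and 25.21 TPM in Merkel, 43.15, 32.71 and 33.51 TPM in first basal and 35.34, 33.48 and 38.92 TPM in second basal libraries. Every Merkel level was below every basal level, and the change was -0.71 ± 0.14 (limma adjusted p = 0.00349).

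Suz12 (ENSMUSG00000017548, chr11:79993106-80034123), the scaffold that holds PRC2 together, fell short of the threshold. Its Merkel levels of 21.11, 15.77 and 22.84 TPM overlapped the first basal levels of 25.88, 21.11 and 24.35 TPM and lay below the second basal levels of 32.87, 28.24 and 29.25 TPM. The change was -0.42 ± 0.15 (limma adjusted p = 0.0546), and with the sample number as a block in the fit the adjusted p was 0.0125. The histone-binding subunits Rbbp4 and Rbbp7, which also serve other chromatin complexes, were the most abundant members at 64.09 to 93.35 TPM and 82.69 to 125.68 TPM. No difference from the basal mean was detected for Rbbp4, whose change was 0.01 with a 95% interval of -0.27 to 0.30, but against the first basal libraries it rose by 0.31 after scaling (limma adjusted p = 0.0214). Rbbp7 was at 95.92, 82.69 and 99.46 TPM in Merkel, 95.96, 106.01 and 91.98 TPM in first basal and 110.35, 125.68 and 111.23 TPM in second basal libraries. It overlapped only the first basal set, with a change of -0.20 from the basal mean (limma adjusted p = 0.226) and of -0.32 from the second basal libraries (limma adjusted p = 0.041), the latter lost after scaling.

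Among the PRC2 accessory subunits, 3 of 5 fell (background 28.5%), and Mtf2 showed the largest change of the 11 PRC2 genes. Mtf2 (ENSMUSG00000029267, chr5:108065674-108109004) is a Polycomb-like protein that brings PRC2 to unmethylated CpG islands. Its Merkel levels of 14.95, 14.58 and 14.29 TPM were almost alike. Basal levels were 28.90, 26.26 and 30.50 TPM in the first and 35.51, 26.88 and 32.43 TPM in the second libraries, all well above the Merkel range. The change was -0.99 ± 0.12 (limma adjusted p = 0.00026), and -0.80 after scaling (adjusted p = 0.00143). Mtf2 overlaps Tmed5, a gene on the opposite strand with a mean level of 20.1 TPM, and how reads were split between this pair is not known.

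Phf19, another Polycomb-like protein, was expressed at a lower level and also fell. It was at 2.67, 2.50 and 2.71 TPM in Merkel, 3.08, 3.67 and 3.23 TPM in first basal and 4.90, 4.32 and 5.11 TPM in second basal libraries, with no overlap between the cell types. Its change was -0.46 ± 0.12 (limma adjusted p = 0.0125), and without basal replicate 3 the adjusted p was 0.0709. Phf1, the third Polycomb-like gene, was at 3.64, 2.17 and 3.08 TPM in Merkel and 1.97 to 2.57 TPM in basal libraries, a difference of 0.23 that did not pass (limma adjusted p = 0.285). As a share of the summed level of the 3 Polycomb-like genes, Phf1 made up 11.3% to 17.1% in Merkel libraries and 5.12% to 7.61% in basal ones, and Mtf2 70.3% to 75.7% against 79.6% to 84.2%. The sum itself was 19.25 to 21.26 TPM in Merkel and 31.9 to 42.59 TPM in basal libraries. Phf1 overlaps Cuta on the opposite strand (mean level 40.9 TPM), so its share is uncertain in the same way.

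Aebp2 (ENSMUSG00000030232, chr6:140622663-140678472) and Jarid2 both belong to the PRC2.2 form of the complex, and they parted. Aebp2, a zinc finger protein that supports PRC2 activity, was at 25.83, 22.99 and 26.49 TPM in Merkel libraries. It was at 43.66, 36.60 and 48.01 TPM in the first and 47.54, 41.14 and 46.07 TPM in the second basal libraries, so every basal level was above every Merkel level. Aebp2 fell by 0.78 (SE 0.12, limma adjusted p = 0.00121). Jarid2, which helps to recruit PRC2 and binds ubiquitinated H2A, was at 18.52 to 25.14 TPM in Merkel and 17.53 to 27.31 TPM in basal libraries. No difference was detected for Jarid2: its change of -0.07 has a 95% interval of -0.41 to 0.28.

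**Figure D2:**
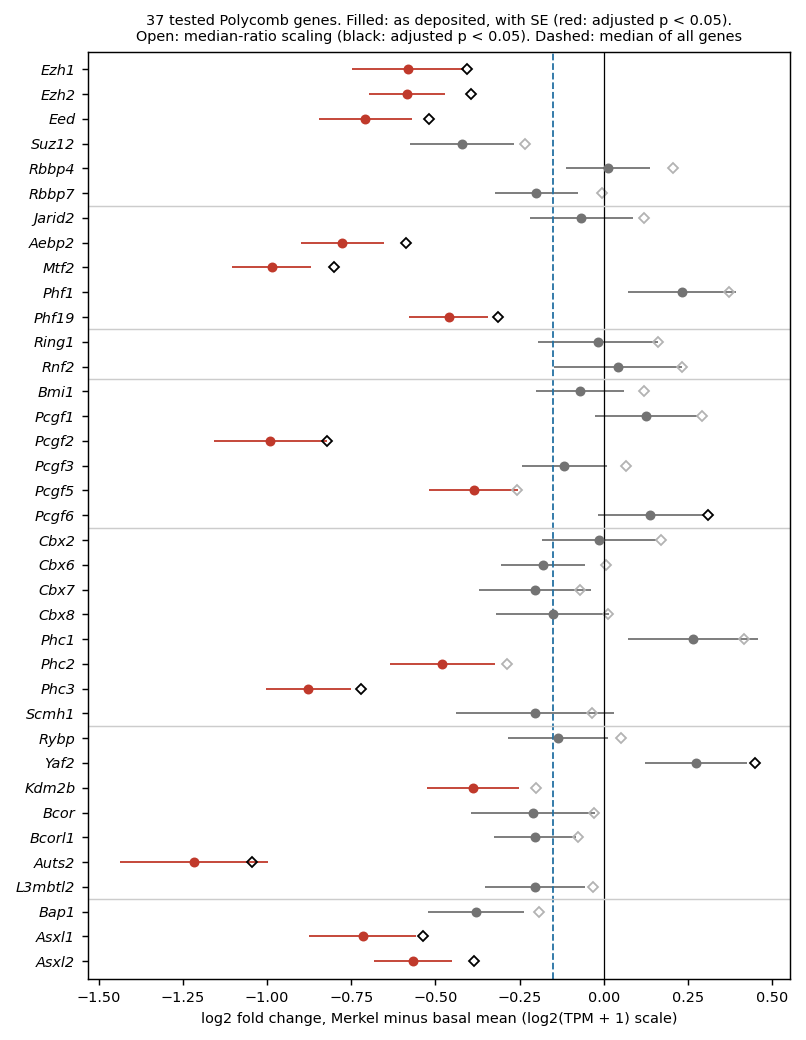
Change of each of the 37 tested members, Merkel minus basal mean, on the log2(TPM + 1) scale: filled circles with SE bars are values as deposited (red where the adjusted p is under 0.05), open diamonds are values after median-ratio scaling (black where the adjusted p is under 0.05). The dashed line is the median of all genes at -0.15; Auts2, Pcgf2 and Mtf2 lie farthest to the left, and Yaf2 and Pcgf6 are called higher after scaling.

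The catalytic ligases of PRC1 showed no detectable difference. Rnf2, the main H2A ubiquitin ligase, was at 36.75, 25.46 and 32.20 TPM in Merkel libraries. Its basal levels of 33.52, 18.37 and 28.78 TPM in the first and 39.87, 29.60 and 36.23 TPM in the second libraries surrounded them, and replicate 2 was lowest in each group. The change of Rnf2 was 0.04 with a 95% interval of -0.39 to 0.47, and that of its paralog Ring1 was -0.02 with an interval of -0.42 to 0.39.

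Among the 6 PCGF genes, which set the type of PRC1, Pcgf2 and Pcgf5 fell (background 28.5%). Pcgf2 (ENSMUSG00000018537, chr11:97688823-97700497), also called Mel18 and a partner of canonical PRC1, was at 5.58, 3.92 and 5.77 TPM in Merkel libraries. It was at 11.17, 7.88 and 11.71 TPM in the first and 13.08, 10.88 and 11.83 TPM in the second basal libraries, again with no overlap. The change was -0.99 ± 0.17 (limma adjusted p = 0.00169). Bmi1, its paralog in canonical PRC1 and the most abundant PCGF gene, was at 41.85, 31.63 and 38.39 TPM in Merkel and 31.70 to 45.87 TPM in basal libraries, with a change of -0.07 and a 95% interval of -0.37 to 0.23. Against the first basal libraries alone and after scaling, Bmi1 rose by 0.27 (limma adjusted p = 0.0433). The ratio of Pcgf2 to Bmi1 was 0.151 to 0.172 in Merkel libraries and 0.25 to 0.372 in basal ones. These ranges did not overlap, and the difference in log2 ratio was -0.92 (exact permutation test, two-sided, p = 0.1, the smallest that 3 against 3 allows; adjusted p = 0.2 over the 8 ratios tested).

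Pcgf5, a variant PRC1 partner, was low everywhere, at 2.05, 1.54 and 1.74 TPM in Merkel and 3.47, 2.84 and 3.09 TPM in first basal libraries. Its second basal levels of 2.42, 2.31 and 1.83 TPM overlapped the Merkel range. The change of -0.39 (limma adjusted p = 0.0434) was not called after scaling (adjusted p = 0.0757) or when any 1 of the 6 values was left out. The other variant partners Pcgf1, Pcgf3 and Pcgf6 were at 5.07 to 7.29 TPM, 13.68 to 20.30 TPM and 5.55 to 8.87 TPM over the 9 libraries and did not pass. After scaling Pcgf6 rose by 0.31 (limma adjusted p = 0.0489).

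**Figure D3:**
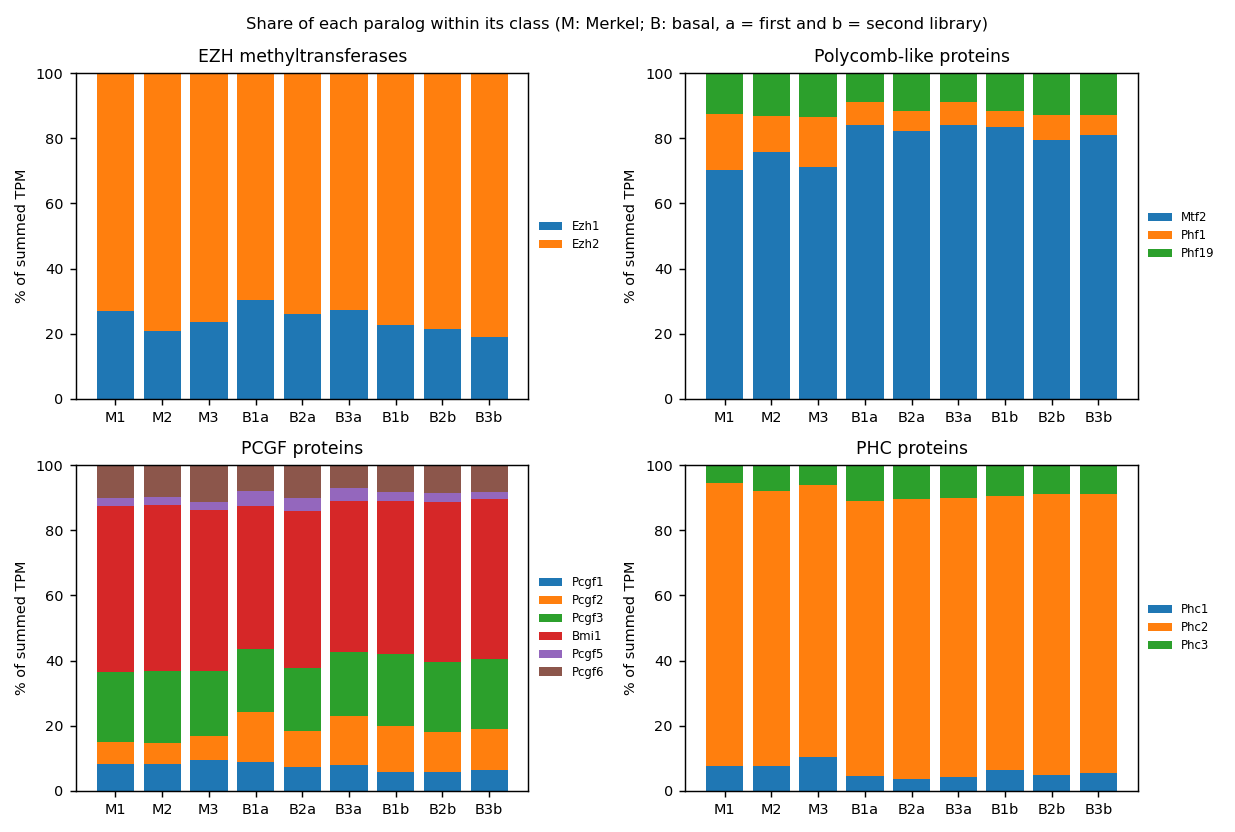
Share of each paralog in the summed TPM of its class, in % on the vertical axis, for the Ezh, Polycomb-like, PCGF and PHC genes, with 1 bar per library (M, Merkel; B, basal, a for first and b for second library). Pcgf2 takes 6.34% to 7.46% of the PCGF sum in Merkel and 11% to 15.4% in basal libraries, while the Ezh2 share overlaps between cell types.

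Of the 8 genes for CBX, PHC and SCM subunits, which let canonical PRC1 bind the PRC2 mark and form larger assemblies, 2 fell. That share is near the background of 28.5%. Phc3 (ENSMUSG00000037652, chr3:30899371-30969415), a polyhomeotic protein whose SAM domain can polymerise, was at 2.96, 2.92 and 3.05 TPM in Merkel libraries. Its basal levels were 7.22, 5.73 and 5.94 TPM in the first and 6.90, 6.36 and 5.80 TPM in the second libraries, with no overlap and little spread in either cell type. The change was -0.88 ± 0.13 (limma adjusted p = 0.00069).

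Phc2 was the most abundant polyhomeotic gene, at 47.09, 31.14 and 41.62 TPM in Merkel, 55.28, 47.51 and 51.04 TPM in first basal and 61.87, 61.25 and 56.32 TPM in second basal libraries. Its change of -0.48 (limma adjusted p = 0.0353) was not called after scaling (adjusted p = 0.061) or without any of 5 of the 6 values, Merkel replicate 1 being the exception, and without Merkel replicate 2 it was -0.31. Phc1 was at 4.14, 2.84 and 5.22 TPM in Merkel and 2.06 to 4.65 TPM in basal libraries, and its difference of 0.26 did not pass (limma adjusted p = 0.309). Phc1 held 7.64% to 10.5% of the summed PHC level in Merkel and 3.73% to 6.33% in basal libraries. The ratio of Phc1 to Phc2 did not overlap either, at 0.107 to 0.146 against 0.0631 to 0.0899, a difference in log2 ratio of 0.74 (exact permutation test, two-sided, p = 0.1, the smallest possible; adjusted p = 0.2). The readers Cbx2, Cbx6, Cbx7 and Cbx8 all overlapped between the cell types, with changes of -0.01, -0.18, -0.20 and -0.15. Cbx6 was the highest of these 4, at 24.88, 22.57 and 28.43 TPM in Merkel, 25.46, 26.68 and 25.33 TPM in first basal and 30.59, 35.68 and 29.74 TPM in second basal libraries, and only the second basal levels were all above the Merkel ones. Against these it fell by 0.33 (limma adjusted p = 0.0424), a call lost after scaling. Cbx7 was the lowest, at 1.49 to 3.02 TPM. Scmh1, an SCM protein, ranged from 4.42 to 11.82 TPM and did not pass (limma adjusted p = 0.525).

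Among 7 variant PRC1 genes Auts2 and Kdm2b fell, a share near the background of 28.5%. Auts2 (ENSMUSG00000029673, chr5:131437333-132543344), a partner of PRC1 with Pcgf3 or Pcgf5 that has been linked to gene activation in neurons, showed the largest change of all 37 members. It was at 7.93, 4.80 and 6.73 TPM in Merkel libraries and at 15.55, 9.54 and 14.33 TPM in the first basal libraries. In the second basal libraries it reached 23.54, 14.29 and 24.23 TPM. Replicate 2 was the lowest in each group, and no Merkel level reached the lowest basal level. The change was -1.22 ± 0.22 (limma adjusted p = 0.00238), and -1.04 after scaling (adjusted p = 0.00615).

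Kdm2b, the CpG-binding protein that recruits variant PRC1 with Pcgf1, was at 18.38, 13.40 and 16.46 TPM in Merkel, 20.44, 19.84 and 20.68 TPM in first basal and 23.94, 22.80 and 19.67 TPM in second basal libraries. The cell types did not overlap, but the change of -0.39 (limma adjusted p = 0.0482) was close to the threshold. It was lost after scaling (adjusted p = 0.101) and in the same 5 fits that leave out a value as for Phc2. Kdm2b overlaps Rnf34 on the opposite strand, which had a mean level of 15.7 TPM. Rybp and Yaf2, which replace the CBX protein in variant PRC1, were at 15.03 to 27.11 TPM and 6.62 to 10.67 TPM. Yaf2 differed by 0.27 with a 95% interval of -0.07 to 0.62, and after scaling it rose by 0.45 (limma adjusted p = 0.0137). The ratio of Yaf2 to Rybp was 0.497 to 0.548 in Merkel, 0.431 to 0.51 in first basal and 0.302 to 0.353 in second basal libraries. Bcor, Bcorl1 and L3mbtl2, scaffolds and partners of variant complexes, did not pass, with changes of -0.21, -0.20 and -0.20.

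In PR-DUB, both tested ASXL genes fell and Bap1 did not pass (background 28.5% lower). Asxl1 (ENSMUSG00000042548, chr2:153345829-153404007), a cofactor that activates Bap1, was at 11.05, 7.62 and 10.05 TPM in Merkel libraries. It was at 16.48, 13.19 and 15.28 TPM in the first and 20.05, 15.53 and 17.42 TPM in the second basal libraries. Asxl2 (ENSMUSG00000037486, chr12:3426857-3506852), its paralog, was at 11.01, 11.34 and 12.94 TPM in Merkel libraries, and its 6 basal levels lay between 17.39 and 18.49 TPM. Neither gene overlapped between the cell types. Asxl1 fell by 0.72 (SE 0.16, limma adjusted p = 0.00646) and Asxl2 fell by 0.57 (SE 0.12, limma adjusted p = 0.00431). Bap1, the deubiquitinase itself, was at 23.06, 16.49 and 22.01 TPM in Merkel and 23.26 to 29.11 TPM in basal libraries. Those ranges did not overlap, and the change of -0.38 ± 0.14 just missed the threshold (limma adjusted p = 0.0596), with an adjusted p of 0.022 when the sample number was a block.

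For 4 members the upstream promoter is shown, because these are the members whose windows hold one of 3 motifs common at promoters of cell cycle and housekeeping genes. The 250 bases upstream were searched on both strands for TTTCCCGC, TTTGGCGC, TTTCGCGC and TTTGCCGC for E2F, CGCATGCG for NRF1 and CCGGAAGT for ETS factors. Bases of a window that lie inside the GENCODE gene were searched but are not printed, which shortens Phf19 to 200 bases. Sequences are from RefSeq on GRCm38.p6, matched by symbol for 32 of the 38 members, and are printed 5′ to 3′ on the gene's strand, ending just before the annotated gene, with the motif in capitals. Suz12 is at chr11:79992856-79993105 (plus strand), Phf19 at chr2:34914027-34914226 (minus strand), Phc3 at chr3:30969416-30969665 (minus strand) and Asxl2 at chr12:3426607-3426856 (plus strand).
Suz12: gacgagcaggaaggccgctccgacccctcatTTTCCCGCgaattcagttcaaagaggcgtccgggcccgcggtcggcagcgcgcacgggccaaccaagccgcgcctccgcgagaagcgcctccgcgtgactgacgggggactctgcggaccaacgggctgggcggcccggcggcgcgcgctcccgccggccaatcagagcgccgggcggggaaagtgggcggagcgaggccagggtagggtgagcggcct
Phf19: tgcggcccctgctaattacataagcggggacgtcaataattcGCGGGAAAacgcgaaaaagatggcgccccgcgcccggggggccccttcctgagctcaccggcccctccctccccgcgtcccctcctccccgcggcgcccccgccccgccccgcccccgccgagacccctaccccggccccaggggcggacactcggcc
Phc3: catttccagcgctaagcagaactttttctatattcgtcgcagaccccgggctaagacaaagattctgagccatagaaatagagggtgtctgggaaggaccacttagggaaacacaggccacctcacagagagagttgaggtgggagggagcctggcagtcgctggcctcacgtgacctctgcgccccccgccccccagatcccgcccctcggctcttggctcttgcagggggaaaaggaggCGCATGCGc
Asxl2: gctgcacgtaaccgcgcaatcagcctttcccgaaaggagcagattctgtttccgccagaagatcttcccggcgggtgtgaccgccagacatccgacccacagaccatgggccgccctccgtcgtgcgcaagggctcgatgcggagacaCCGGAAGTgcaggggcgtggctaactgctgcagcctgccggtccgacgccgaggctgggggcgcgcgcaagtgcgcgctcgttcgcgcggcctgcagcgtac
The E2F letters stood in 2 of the 32 matched members, Suz12 and Phf19, where the Phf19 match is on the other strand, and in 2.16% of all 27025 genes with a window. The NRF1 letters stood in Phc3 and in 1.75% of genes, and the ETS letters in Asxl2 and in 3.23%. A match says only that these letters are in the window.

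Other genes of the pathway, partners and mark erasers, were taken from a list with 40 genes in the table. Of the 37 tested, 19 fell and 0 rose (background 28.5% lower and 13.2% higher). Their median change was -0.44, against -0.15 over all genes. At an unadjusted p under 0.05, 1 of them was higher, where 2140 of all 13822 genes were. After scaling 16 fell and 2 rose (background 21.7% lower and 23.2% higher). Those that rose were Skp1a and Max, both partners of variant PRC1. Ogt, the enzyme that adds N-acetylglucosamine to proteins and binds PR-DUB, was the only one of the 37 to fall by 2-fold or more on the log2(TPM + 1) scale. It was at 16.91, 14.44 and 20.03 TPM in Merkel, 39.01, 35.54 and 40.96 TPM in first basal and 40.22, 39.67 and 39.42 TPM in second basal libraries, a change of -1.16 ± 0.14 (limma adjusted p = 0.00023).

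Several enzymes that remove the Polycomb marks also fell. For the counts in this paragraph the background is 28.5% lower genes. Of 6 erasers, 4 did: the H3K27 demethylases Kdm6a (-0.68, limma adjusted p = 0.00763) and Kdm6b (-0.60, limma adjusted p = 0.00362), and the H2A deubiquitinases Usp21 (-0.74) and Usp16 (-0.34). Usp16, and the partners Tfdp1 and Hcfc1 named below, were not called after scaling (adjusted p of 0.196, 0.107 and 0.103). With the sample number as a block the eraser Mysm1 and the PR-DUB partner Mbd5 also fell (adjusted p of 0.00794 and 0.00565) and Max rose (adjusted p = 0.0311). Of 21 tested PRC1 partners 10 fell, with L3mbtl3, an MBT domain protein, at -0.85 and E2f6, the DNA-binding subunit of the Pcgf6 complex, at -0.70. The others that fell were Scml2, Sfmbt1, Usp7, Wdr5, Mga, Tfdp1, Fbrs and Fbrsl1. Of 7 PR-DUB partners Ogt, Mbd6, Hcfc1 and Foxk1 fell, and of 3 PRC2 partners Epop did.

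Genes of the cell cycle were also lower in Merkel cells. Of 39 proliferation genes, 36 fell in Merkel cells (background 28.5%) and 0 rose, with a median change of -0.76. Their summed level was 900.6 to 1188 TPM in Merkel, 1388 to 1506 TPM in first basal and 1974 to 2131 TPM in second basal libraries, the same order of the 3 groups as for Ezh2. The proliferation marker Mki67 was at 17.56 to 26.85 TPM in Merkel, 55.72 to 58.17 TPM in first basal and 74.50 to 90.90 TPM in second basal libraries. The part of cycling cells in the Polycomb differences was not tested.

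The comparison was repeated against the first and the second basal libraries apart, in 1 limma fit of 3 groups over 14386 genes. The Merkel libraries are shared by these comparisons. Against the first basal libraries 11 of 37 members fell and 0 rose (background 28.2% lower and 13.8% higher). At an unadjusted p under 0.05, 1 member was higher, where 2270 of all 14386 genes were. Against the second basal libraries 19 fell and 0 rose (background 29.1% lower and 12% higher). At an unadjusted p under 0.05, 0 members were higher, where 2089 of all 14386 genes were. The change of Ezh2 was -0.36 against the first (limma adjusted p = 0.012) and -0.80 when set against the second (limma adjusted p = 0.00014). Auts2 differed by -0.91 and -1.52, and Mtf2 by -0.92 and -1.05. The calls of Ezh2 and Auts2 against the first basal libraries were lost without first basal replicate 1 (adjusted p of 0.0502 and 0.0508), and that of Auts2 also without Merkel replicate 2 (adjusted p = 0.0599). For Eed (-0.71 and -0.70), Phc3 (-0.87 and -0.88) and Asxl2 (-0.57 and -0.56) the values were nearly the same.

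With the sample number as a block, 13 members fell and 3 rose against the first basal libraries, where 34.4% of all genes fell and 16.5% rose. Those called lower only with the block were Phc2 (-0.37) and Kdm2b (-0.33), with limma adjusted p of 0.0273 and 0.0381. The 3 that rose were Yaf2 (0.29), Cbx2 (0.30) and Phc1 (0.51), with adjusted p of 0.0484, 0.0201 and 0.0176. In the same fit Cbx2 fell against the second basal libraries (-0.33, adjusted p = 0.0141), the opposite direction, and so did Scmh1 (-0.34, adjusted p = 0.0351). After scaling 11 members fell and 8 rose against the first basal libraries (background 22.7% lower and 21.9% higher), the risen ones being Yaf2, Phf1, Pcgf6, Cbx2, Bmi1, Phc1, Rbbp4 and Rybp, and 13 fell and 3 rose against the second (background 20.1% lower and 22.7% higher). By 2-fold or more on the log2(TPM + 1) scale, 0 members fell against the first (background 7.06%) and 3 against the second (background 5%), which were Mtf2, Pcgf2 and Auts2. Without Merkel replicate 2 the members lower against the second basal libraries numbered 13.

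The basal libraries of a number were also set against each other. Of 37 members, 4 rose from the first to the second libraries (background 3.55%) and 0 fell (background 5%). At an unadjusted p under 0.05, 1 member was lower, where 1241 of all 14386 genes were. None of the 4 rose by 2-fold or more (background 0.695%). After scaling the count was 4 higher and 1 lower, Pcgf5 (background 3.92% higher and 6.61% lower). Ezh2 rose by 0.44 ± 0.10 (limma adjusted p = 0.018), with levels of 39.95 to 42.85 TPM above 29.47 to 31.80 TPM. Rybp was at 26.97, 27.11 and 25.14 TPM in the second and 19.35, 15.03 and 16.68 TPM in the first libraries and rose by 0.61 (limma adjusted p = 0.0279). Merkel levels of Rybp were 21.87, 15.38 and 20.88 TPM.

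Cbx2, a reader of the PRC2 mark that compacts chromatin, was at 21.03, 15.44 and 18.09 TPM in the second and 13.23, 10.22 and 10.57 TPM in the first libraries and rose by 0.63 (limma adjusted p = 0.0488), with Merkel levels of 17.47, 11.56 and 13.98 TPM. Pcgf3 was at 20.30, 19.11 and 19.82 TPM in the second and 14.13, 13.77 and 15.34 TPM in the first libraries and rose by 0.43 (limma adjusted p = 0.0436), with Merkel levels of 17.70, 13.68 and 15.28 TPM. None of the 4 overlapped between the library sets, but neither did others that were not called, such as Bmi1, Suz12 and Rbbp7. The share of all genes without such overlap was not counted. With the sample number as a block 7 members rose (background 7.69%), the added ones being Rnf2, Phf19 and Auts2. With any 1 library left out the count was 0 to 2. In the same comparison 17 of 39 proliferation genes rose, with a median change of 0.47, and the macrophage and Langerhans cell markers stood at the sums given above. Their part in these differences was not tested.

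**Figure D4:**
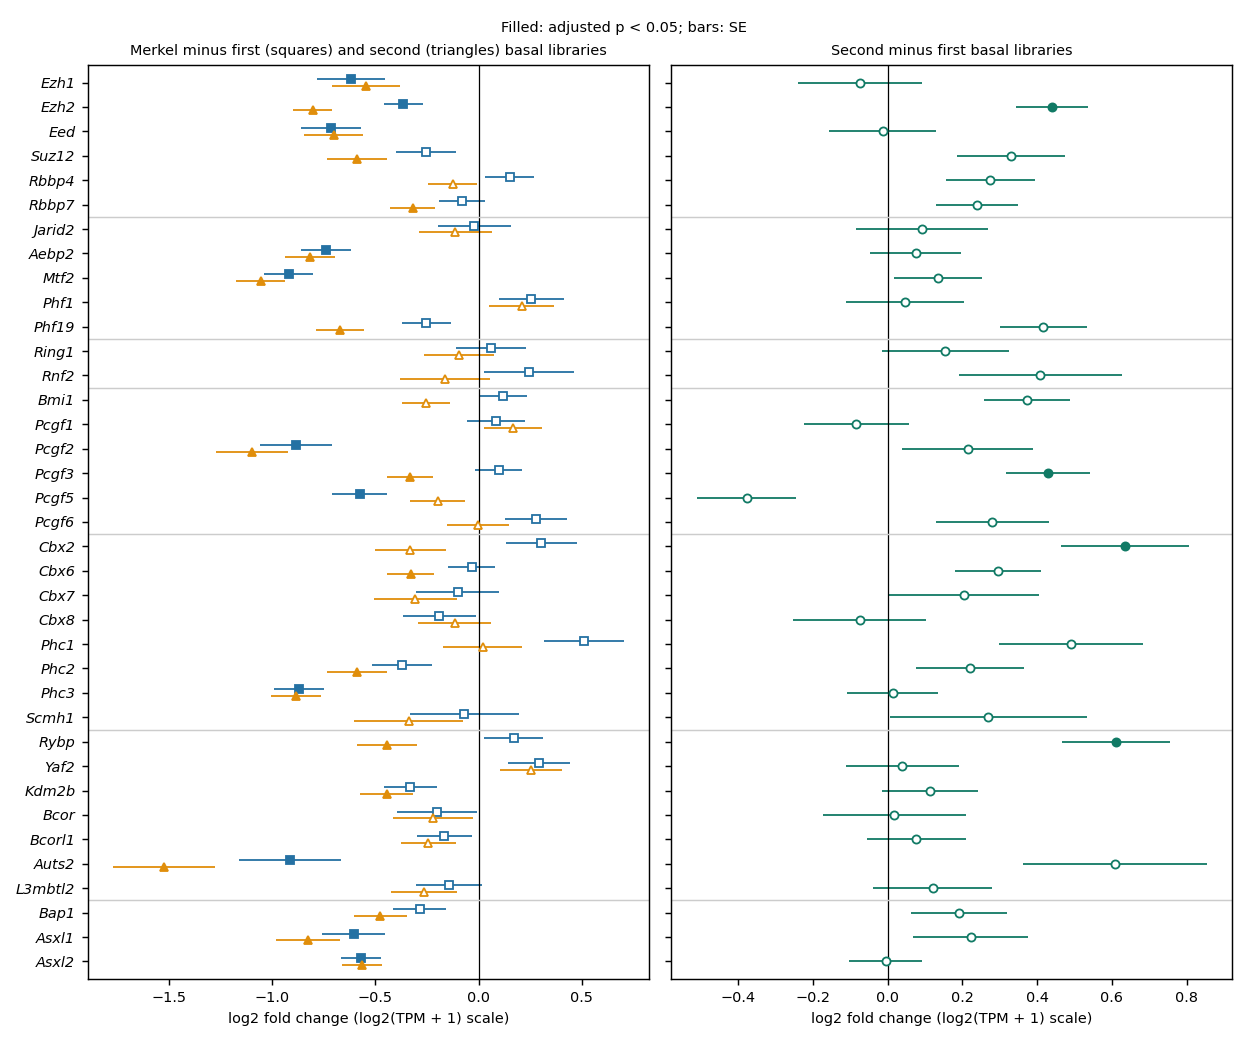
Changes of the 37 tested members on the log2(TPM + 1) scale with SE bars, on the left for Merkel minus first (squares) and minus second (triangles) basal libraries and on the right for second minus first basal libraries. Filled symbols have an adjusted p under 0.05: in the right panel these are Ezh2, Pcgf3, Cbx2 and Rybp, with changes of 0.44, 0.43, 0.63 and 0.61.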

How the data were processed

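Total RNA of 9 libraries was prepared with a stranded kit and read as paired ends, per the labels' protocols. Trimmomatic, STAR and RSEM on mm10 are named in the submitters' processing notes; no version, gene annotation or strand setting is named there. The deposited table holds TPM per gene, made by the authors. TPM carries no depth, which is therefore unknown, and counting error could not be given; between 13012 and 13649 genes reached 1 TPM per library.

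Of 49671 Ensembl rows 49326 matched a GENCODE M21 symbol. Genes at 1 TPM or more in at least 3 values were tested on log2(TPM + 1) with limma 3.58.1 in R 4.3.3; tables used Python 3.11.15 with pandas 2.3.3. Ratios of paralogs were compared by exact permutation. Merkel and basal values of a number deviated together (correlations 0.383, 0.345 and 0.198 over genes), as did first and second basal libraries (0.471, 0.526 and 0.361). The main and the 3-group fits leave this pairing out and treat these values as independent. An alternative fit takes the sample number as a block, and it is given where it changes a member's call. On data simulated for Merkel against basal means (13309 genes) the fit recovered 18% of genes changed by 0.5 on the log2 scale, 84% at 1 and 96% at 1.5, with 4 false calls. Only 200 genes were changed there, and none was of low level. In the real data 28.5% of genes fell and 13.2% rose, which makes the adjustment milder. The recovery therefore does not carry over to the real tests or to low members.

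The members and lists were chosen with earlier results of these data known. All members are accounted for, values per library are given for most members called in any comparison and for partners set beside them, and other genes of the pathway are named where called. Some values are not reported here. Alternatives changed the pseudocount, the filter, the scaling, the fit, the call and the libraries used. A protein-coding gene overlaps Mtf2, Phf1, Kdm2b, Rbbp7, Rnf2, Cbx6 and Cbx7 at 1 TPM or more.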

Additional observations from a re-analysis of the deposited data

Results flagged for a closer look

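In the 3-group fit, 4 members differed between the first and the second basal libraries, samples that carry the same cell type label, where 3.55% of all genes were higher and 5% lower in the second. The change, second minus first, was 0.44 for Ezh2, 0.43 for Pcgf3, 0.63 for Cbx2 and 0.61 for Rybp on the log2(TPM + 1) scale. Each was higher in the second library of all 3 sample numbers, which held for 21 of the 37 tested members. The limma adjusted p were 0.018, 0.0436, 0.0488 and 0.0279, in the same order. After median-ratio scaling all 4 were still called. With no filter on low values 1 was called, and with any 1 library left out 0 to 2 were. Groups of 3 samples are too small to be examined for single outlying libraries.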

How the results depend on the processing

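In the comparison of Merkel cells with basal means, Ezh2, Eed, Aebp2, Mtf2, Pcgf2, Phc3, Auts2, Asxl1 and Asxl2 were called lower in all 14 alternative fits. No gene named here reversed a call in any of the 4 comparisons. Without 1 replicate, 10 to 13 members were lower against the basal means, 8 to 13 against the first basal libraries (0 to 2 higher, the 2 without Merkel replicate 2) and 13 to 18 against the second, and 0 to 2 were higher in second than in first basal libraries. Without 1 replicate 14 to 19 other pathway genes were lower and 0 to 2 higher, 28 to 37 proliferation genes were lower, and 6 to 17 were higher in second than in first basal libraries. In the same fits 17.8% to 27.2% of all genes were lower against the basal means, 21.2% to 27.2% against the first and 23% to 27.8% against the second basal libraries, and 1.35% to 3.25% were higher in second than in first.

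With a call at 2-fold or more, members lower numbered 1 against basal means, 0 against first and 3 against second basal libraries, 0 were higher in second than first basal libraries, 1 other pathway gene and 8 proliferation genes were lower, and 0 proliferation genes were higher in second basal libraries. Median-ratio scaling gave 2, 8 and 3 higher members against basal means, first and second basal libraries, 1 member (Pcgf5) lower in second than in first, and 2 higher other pathway genes. Without mitochondrial and small RNA genes there were 1, 6 and 1 higher members, 7 higher in second basal libraries and 2 higher other pathway genes. Over all genes, 2850 of 15264 were then higher against basal means. Of 15981 genes, 3017 were higher against first and 2620 against second basal libraries, and 964 in second against first. The replicate block gave 3 higher members against first basal libraries, 7 in second against first and 1 higher other pathway gene, and it changed no other count by over 1.5 times. With no filter on low values 1 member was higher in second basal libraries (335 of all 28451 genes), and with 9 libraries as deposited 1 other pathway gene was higher. The log2 ratio difference of Ezh2 to Ezh1 was 0.25 with first and -0.26 with second basal libraries only, that of Yaf2 to Rybp 0.12 and 0.69, and that of Rbbp7 to Rbbp4 ranged from -0.29 to -0.16 without 1 number. The causes were not tested. Over all genes, the calls higher against basal means went from 1824 to 3224 after scaling and to 777 without Merkel replicate 3.

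With 3 values a group, small changes were often below detection, and exact tests could not go under 0.1. TPM gives no depth, so the precision of low members such as Cbx7, Pcgf5 and Bcorl1 is unknown. Levels are relative within a library, and sorted cells were not counted.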
